A study of Mus musculus with 6 samples.

Results

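Transcripts of 10 genes of TGF-beta signalling were followed in biliary epithelial cells, which line bile ducts in the liver, from mice that lack Klf5 in liver epithelium and from control mice. The genes, taken by symbol from the 24404 listed, were the ligands Tgfb1, Tgfb2 and Tgfb3, the receptors Tgfbr1, Tgfbr2 and Tgfbr3, the signal carrier Smad3, and the feedback inhibitors Smad7, Skil and Pmepa1. All 10 had enough reads to be analysed. They were picked with values of these libraries in view, so their differences between the groups are given as a description, without p-values.

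The Klf5 LKO group (3 libraries) had the genotype Alfp-CreTg/+;Klf5flox/flox, and the control group (3 libraries) Alfp-Cre+/+;Klf5flox/flox. Both carried the floxed Klf5 gene, were adult, of C57BL/6 strain, and received 1 week of DDC, a compound that injures bile ducts. The Alfp-Cre transgene was present in the Klf5 LKO mice alone, so effects of Cre and of Klf5 loss cannot be told apart, and by its albumin and alpha-fetoprotein regulatory elements it acts in hepatocytes as well as in duct cells. Separate animals are not stated for the libraries, so their spread, on which p-values rest, may be partly technical.

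TGF-beta ligands are secreted in a latent complex and must be released before they bind. The released ligand joins the type II receptor Tgfbr2 to the type I receptor Tgfbr1, which phosphorylates Smad2 and Smad3, and these enter the nucleus with Smad4 to switch target genes on or off. Smad7, Skil and Pmepa1 are themselves induced by the signal and dampen it, forming negative feedback. In the injured liver the pathway is known for driving matrix deposition by stellate cells and for restraining growth of epithelial cells.

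The clearest difference among the 10 genes was in Pmepa1, whose level in the Klf5 LKO libraries was under the control level by 1.08 on the log2 scale (SE 0.13, a 2.11-fold difference). The ligands Tgfb2 and Tgfb3 were higher in every Klf5 LKO library than in every control library, by log2 differences of 0.62 (SE 0.15) and 0.53 (SE 0.15), and Smad3 was higher by 0.34 (SE 0.14). Tgfbr2 was lower by 0.41 (SE 0.16) with groups that overlapped, and Tgfb1, Tgfbr1, Smad7, Skil and the scarce Tgfbr3 also had overlapping groups. Means were higher in Klf5 LKO for 5 of the 10 genes and lower for 5, and the median log2 difference was -0.06, against -0.01 over all 13490 genes tested. In bulk RNA, fewer cells of a type and less RNA per cell cannot be told apart.

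Proximal promoters are shown for Tgfb2 and Smad3, whose groups did not overlap, for the scarcest ligand gene Tgfb1, and for the type II receptor gene Tgfbr2, whose groups overlapped. RefSeq promoters (GRCm38.p6, from 250 bases before to 50 after the start of the gene) matched 5 of the 10 genes, Tgfb1, Tgfb2, Tgfbr1, Tgfbr2 and Smad3, and did not match Tgfb3, Tgfbr3, Smad7, Skil or Pmepa1. Capitals mark 2 short words of the kind that Krüppel-like and Sp factors can bind, CACCC and the GC box word CCGCCC. Both strands were searched, so a capital run may be the reverse complement. No match of one overlapped a match of the other. The promoters lie at chr1:186705940-186706239 (minus strand) for Tgfb2, chr9:63757945-63758244 (minus strand) for Smad3, chr9:116175314-116175613 (minus strand) for Tgfbr2 and chr7:25686752-25687051 (plus strand) for Tgfb1.
Tgfb2: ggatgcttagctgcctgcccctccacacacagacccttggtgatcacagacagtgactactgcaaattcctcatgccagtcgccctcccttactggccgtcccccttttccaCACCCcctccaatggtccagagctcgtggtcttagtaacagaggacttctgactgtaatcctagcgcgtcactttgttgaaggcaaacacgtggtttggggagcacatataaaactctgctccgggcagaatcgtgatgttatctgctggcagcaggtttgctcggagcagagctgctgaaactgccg
Smad3: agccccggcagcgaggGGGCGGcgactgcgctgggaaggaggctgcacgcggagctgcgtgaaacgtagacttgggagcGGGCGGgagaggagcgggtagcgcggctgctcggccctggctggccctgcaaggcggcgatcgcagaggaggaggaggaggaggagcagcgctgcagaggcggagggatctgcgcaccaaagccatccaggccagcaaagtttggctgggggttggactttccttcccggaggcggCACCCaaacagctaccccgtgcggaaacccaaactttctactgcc
Tgfbr2: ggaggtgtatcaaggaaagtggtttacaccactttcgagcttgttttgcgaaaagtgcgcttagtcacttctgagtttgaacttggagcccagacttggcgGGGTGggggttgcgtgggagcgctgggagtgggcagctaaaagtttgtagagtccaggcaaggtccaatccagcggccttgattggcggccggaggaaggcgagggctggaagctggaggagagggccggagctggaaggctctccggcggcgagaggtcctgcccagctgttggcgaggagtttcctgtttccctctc
Tgfb1: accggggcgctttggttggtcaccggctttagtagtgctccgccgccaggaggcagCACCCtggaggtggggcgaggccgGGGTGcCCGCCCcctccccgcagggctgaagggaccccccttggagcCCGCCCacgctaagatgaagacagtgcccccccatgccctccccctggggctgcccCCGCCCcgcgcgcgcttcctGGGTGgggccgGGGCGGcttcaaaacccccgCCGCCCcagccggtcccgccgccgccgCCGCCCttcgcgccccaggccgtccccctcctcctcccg

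The Tgfb2 window held 1 CACCC match, 138 bases before the start, and 0 CCGCCC matches, at a GC content of 54.3%. Tgfb1 differed in composition, with 3 CACCC and 6 CCGCCC matches at a GC content of 77.0%. Smad3 had 1 CACCC and 2 CCGCCC matches, and Tgfbr2 had 1 and 0. CACCC occurred in 57.5% and CCGCCC in 35.7% of the 32851 RefSeq promoter windows of this length, so these short words are common. The SMAD-binding word CAGAC, searched on both strands and present in 49.6% of windows, was found 2 times in the Tgfb2 window, 1 time in that of Tgfbr2, and 0 times in those of Smad3 and Tgfb1. A match is a run of letters and not a shown site of binding.

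The values are normalised counts, that is, reads per gene divided by 1 size factor for each library. Total reads assigned to genes lay between 17161087 and 24784167 in Klf5 LKO and between 11726934 and 20066745 in control. Klf5 itself had normalised counts of 977 to 1192 in Klf5 LKO and 2018 to 2316 in control. Counts cover the whole gene, so the remaining Klf5 level does not measure intact transcript. All 12 biliary markers examined had reads in all 6 libraries, with a summed level of 544611 to 621857 in Klf5 LKO and 565928 to 703208 in control, led by Spp1 and Krt18. Hepatocyte markers (12 genes) summed to 10995 to 15352 in Klf5 LKO and 11920 to 15676 in control, led by Alb and Fgb, and without those 2 to 2904 to 3865 in Klf5 LKO and 2448 to 3381 in control. Of these markers Apob, an apolipoprotein gene, was lower, at 224 to 407 in Klf5 LKO and 640.1 to 808 in control (log2 difference -1.24, limma adjusted p = 0.0322). Serpina1a, which has near-identical copies, did not pass, with 207 to 223 in Klf5 LKO and 79.1 to 99.6 in control (limma adjusted p = 0.0745, DESeq2 adjusted p = 0.00930). Their part in the results on the 10 genes was not tested.

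Tgfb2 codes for a ligand that depends on the co-receptor Tgfbr3 for strong binding to Tgfbr2. The gene (chromosome 1, 186622792 to 186705989, minus strand, mm10) had normalised counts of 1827, 2196 and 2271 in Klf5 LKO libraries 1, 2 and 3, against 1158, 1418 and 1523 in control libraries 1, 2 and 3. The lowest Klf5 LKO library lay above the highest control library. Means were 2098 ± 238 in Klf5 LKO and 1366 ± 188 in control (SD, n = 3 each), a 1.54-fold difference. Between 897 and 2947 reads stand behind each value.

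Tgfb3, the ligand gene on chromosome 12 (86056745 to 86079041, minus strand), had 935, 1128 and 998 in the Klf5 LKO libraries, against 677, 759 and 687 in the control libraries. Its groups did not overlap either. The means were 1020.3 ± 98.6 in Klf5 LKO and 707 ± 44.6 in control (SD, n = 3 each), or 1.44-fold. Predicted antisense genes share at least 80 of the 5791 exon bases of Tgfb2. Another pair shares at least 130 and 257 of the 3383 of Tgfb3. Each number is the largest overlap of a single exon. Whether counting used strand is not given, so reads from those stretches cannot be told apart.

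Tgfb1 (chromosome 7, 25687002 to 25705077, plus strand), the ligand made most widely by leukocytes and other cells, had 106, 206 and 159 in Klf5 LKO, against 192, 199 and 198 in control. The control libraries lay close together, and 1 Klf5 LKO library was above all of them while the other two were below. The log2 difference was -0.37 (SE 0.30), and it was -0.12 without Klf5 LKO library 1 and -0.60 without Klf5 LKO library 2. With 126 to 276 reads per library this was one of the less deeply covered of the 10 genes. Of the 20 leukocyte markers, 18 had reads, Clec4f and Cd4 were at 0 in all libraries, and the list summed to 6840.0 to 8405 in Klf5 LKO and 9375 to 13579 in control, led by Cd14 and Csf1r. Cd14 alone had 5188 to 6373 in Klf5 LKO and 7789 to 10053 in control, and the other 19 markers summed to 1652 to 2033 in Klf5 LKO and 1586 to 3526 in control, which overlap. With the mean log2 level of these markers as a term in the fit, the log2 difference of Tgfb1 was -0.47 and that of Tgfb2 was 0.53.

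**Figure D1:**
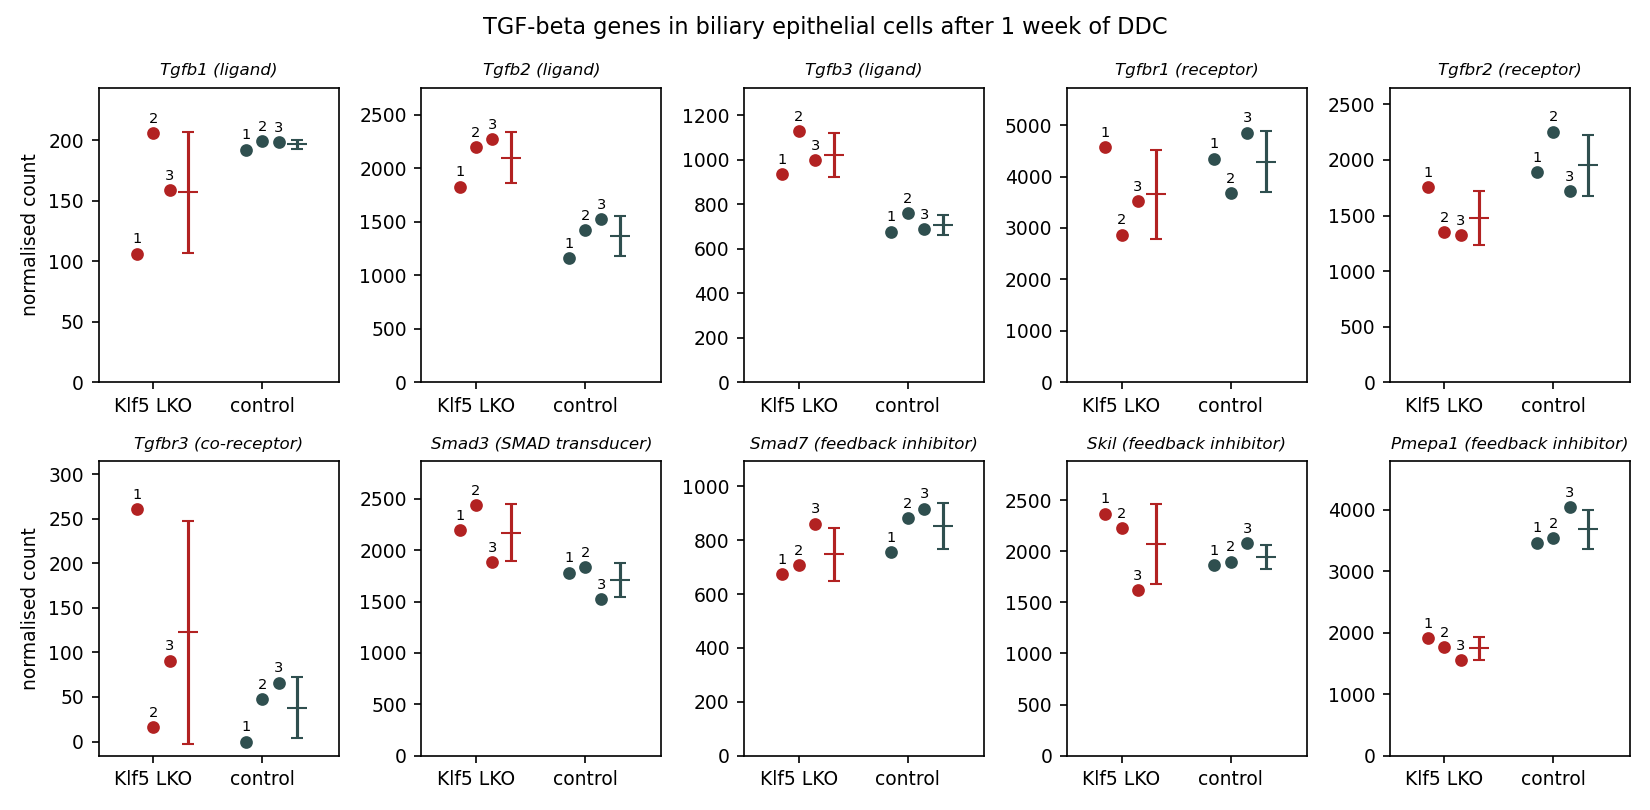
Normalised counts (vertical axis, from 0 except for Tgfbr3, whose axis extends below 0 to hold its SD) of the 10 TGF-beta genes in Klf5 LKO libraries (red, left) and control libraries (dark, right); points are libraries with their numbers, and bars are the mean ± SD (n = 3). Tgfb2, Tgfb3 and Smad3 stood higher in all 3 Klf5 LKO libraries and Pmepa1 stood lower in all 3, while the groups overlapped in the other genes.

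Dividing by exon length allows the ligands to be set against each other roughly. This length holds all annotated exon bases of a gene, 5042 for Tgfb1, 5791 for Tgfb2 and 3383 for Tgfb3. A gene whose main transcript leaves out part of these bases is understated, and transcript forms were not measured. Per kb of exon, Tgfb2 stood at 362 ± 41.0 in Klf5 LKO and 236 ± 32.5 in control, Tgfb3 at 302 ± 29.2 in Klf5 LKO and 209 ± 13.2 in control, and Tgfb1 at 31.1 ± 9.89 in Klf5 LKO and 39.0 ± 0.74 in control (normalised counts per kb, SD, n = 3 each). The 3 ligands together summed to 695 ± 73.2 per kb in Klf5 LKO and 484 ± 39.8 per kb in control. By this measure Tgfb2 and Tgfb3 made up most of the ligand transcript in both groups. The share of Tgfb1 was 3.43%, 5.41% and 4.38% in the Klf5 LKO libraries, against 8.70%, 7.77% and 7.78% in the control libraries, with no overlap. Since the sum holds Tgfb2 and Tgfb3, this share partly restates their higher levels, and the Tgfb1 counts themselves overlapped. The share of Tgfb3 averaged 43.5% ± 2.14 in Klf5 LKO and 43.3% ± 2.83 in control, and that of Tgfb2 52.1% ± 2.20 in Klf5 LKO and 48.6% ± 3.23 in control (SD, n = 3 each), both with overlapping groups.

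**Figure D2:**
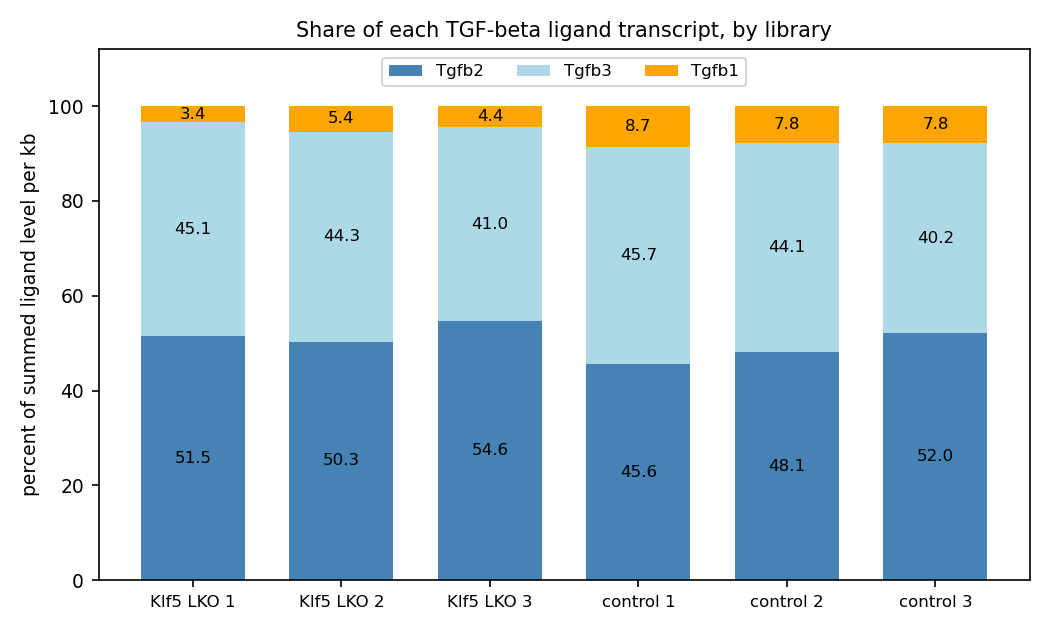
Share of each ligand transcript (percent of the summed normalised count per kb of exon, vertical axis) in each of the 6 libraries, Klf5 LKO libraries left and control libraries right. The Tgfb1 share lay between 3.43% and 5.41% in Klf5 LKO and between 7.77% and 8.70% in control.

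The signalling receptors had lower means in Klf5 LKO, and both overlapped. Tgfbr2, the ligand-binding type II kinase (chromosome 9, 116084293 to 116175360, minus strand), had 1754, 1350.4 and 1322 in Klf5 LKO, against 1891, 2255 and 1717 in control. Only Klf5 LKO library 1 reached into the control range, which it entered at its lower end. Means were 1476 ± 242 in Klf5 LKO and 1954 ± 275 in control (SD, n = 3 each), and the log2 difference was -0.41, or -0.54 without Klf5 LKO library 1.

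Tgfbr1, the type I kinase that phosphorylates the SMADs (chromosome 4, 47353222 to 47414931, plus strand), had 4575, 2866 and 3515 in Klf5 LKO, against 4345, 3679 and 4850.5 in control. Klf5 LKO libraries 2 and 3 were below all controls and library 1 was within their range. The log2 difference was -0.25 (SE 0.17), and it was -0.43 without Klf5 LKO library 1, -0.09 without Klf5 LKO library 2 and -0.16 without control library 3. The ratio of Tgfbr1 to Tgfbr2 per kb was 3.27, 2.66 and 3.33 in Klf5 LKO, against 2.88, 2.04 and 3.54 in control, so the receptors kept overlapping proportions.

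Tgfbr3, or betaglycan, presents ligand to the type II receptor (chromosome 5, 107106570 to 107289629, minus strand). It was scarce and uneven, with normalised counts of 260.5, 16.4 and 90.5 in Klf5 LKO, which are 317, 22 and 85 reads, against 0, 47.4 and 66.0 in control, which are 0, 30 and 65 reads. The groups overlapped, and 1 library in each group set the spread. At the depth of control library 1, a count of 0 allows a level of up to 2.76 if reads are independent. After many rounds of PCR they are not independent molecules, so a higher level is possible. The fitted log2 difference of 2.33 (SE 1.41) was 0.39 without control library 1 and 3.42 without control library 3, so it was not a stable measure. A predicted gene on the same strand shares at least 297 of the 6545 exon bases of Tgfbr3.

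Endothelial and stellate cells can carry Tgfbr3. The 12 endothelial markers, all with reads, summed to 341 to 430.2 in Klf5 LKO and 215 to 696 in control, led by Stab1 and Vwf. Of 15 markers of stellate cells and fibroblasts, Des, Lrat, Pdgfra, Col1a2, Col3a1 and Thy1 were at 0 in all 6 libraries. The list summed to 9867 to 12571 in Klf5 LKO and 7807 to 7864 in control, nearly all from Rgs5 and Ecm1, and the other 13 markers summed to 35.1 to 86.3 in Klf5 LKO and 27.6 to 77.2 in control. Rgs5 alone had 9157 to 11394 in Klf5 LKO and 6876 to 6959 in control. Its part in the higher ligand levels was not tested.

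Smad3 carries the signal from the receptor to DNA (chromosome 9, 63646767 to 63757994, minus strand). It had 2195, 2436 and 1885 in Klf5 LKO, against 1780.3, 1833 and 1522 in control. The groups did not overlap, though Klf5 LKO library 3 lay just above control library 2. Means were 2172 ± 277 in Klf5 LKO and 1712 ± 167 in control (SD, n = 3 each), a 1.27-fold difference.

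Among the feedback inhibitors, Pmepa1 stood apart from Smad7 and Skil. Pmepa1 codes for a membrane protein that binds Smad2 and Smad3 and keeps them from the activated receptor (chromosome 2, 173224458 to 173276533, minus strand). It had 1914, 1765 and 1547 in the Klf5 LKO libraries, against 3459, 3532 and 4039.7 in the control libraries. The highest Klf5 LKO library was far below the lowest control library. Means were 1742 ± 184 in Klf5 LKO and 3677 ± 316 in control (SD, n = 3 each), from 1453 to 3976 reads per library. Leaving out any 1 library kept the log2 difference between -1.15 and -0.997, and with the leukocyte markers as a term it was -1.13. In the authors' deposited table the log2 fold change of Pmepa1, shrunken towards 0, is -0.97, and that of Tgfb2 is 0.54.

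Smad7, the inhibitory SMAD that blocks the type I receptor (chromosome 18, 75367529 to 75395935, plus strand), had 673, 707 and 860.3 in Klf5 LKO, against 756, 882 and 917 in control. Klf5 LKO library 3 fell among the controls. The log2 difference was -0.19 (SE 0.17), with means of 747 ± 99.8 in Klf5 LKO and 852 ± 84.9 in control (SD, n = 3 each). Leaving out 1 library placed the difference between -0.12 (without Klf5 LKO library 1) and -0.30 (without Klf5 LKO library 3).

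Skil, whose product SnoN holds SMAD complexes inactive at target genes (chromosome 3, 31095058 to 31122577, plus strand), had 2365, 2223 and 1622 in Klf5 LKO, against 1865, 1897 and 2081 in control. The Klf5 LKO libraries lay on both sides of the control range. The log2 difference of 0.07 (SE 0.16) became -0.03 without Klf5 LKO library 1 and 0.24 without Klf5 LKO library 3, so no direction can be given. The ratio of Pmepa1 to Skil per kb was 1.60, 1.57 and 1.88 in Klf5 LKO, against 3.66, 3.67 and 3.83 in control.

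**Figure D3:**
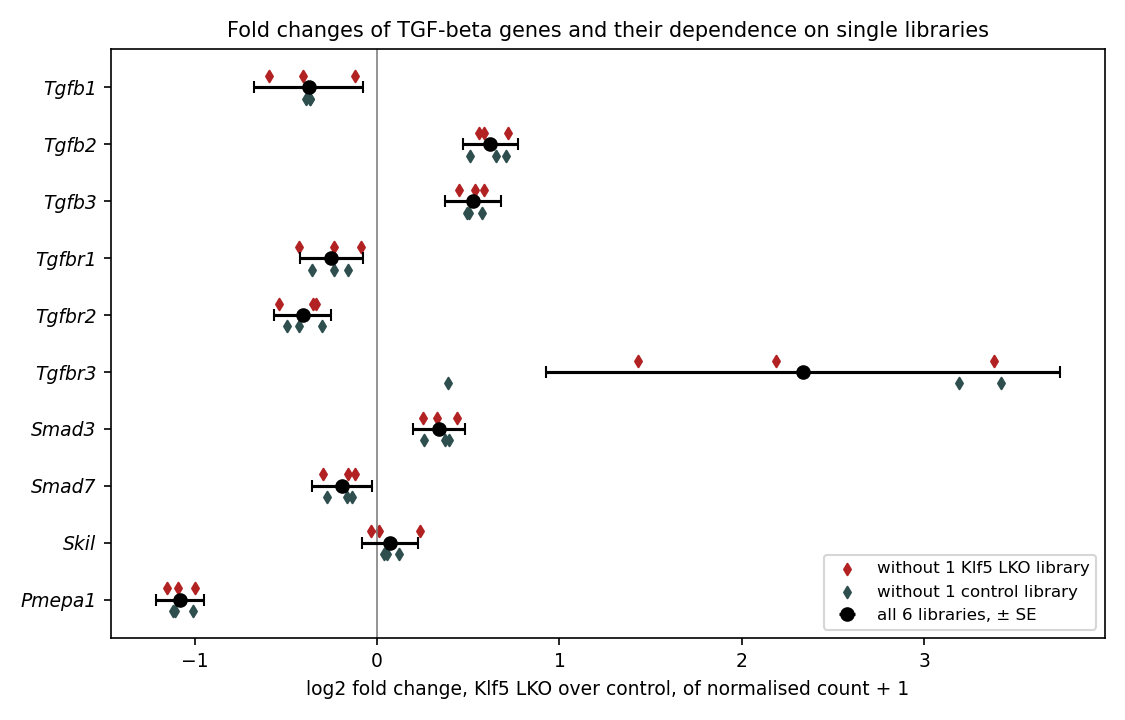
Log2 fold change of Klf5 LKO over control, on the scale of normalised count + 1 (horizontal axis), for the 10 genes; black points are all 6 libraries with ± SE, and diamonds are the values without 1 Klf5 LKO library (red) or 1 control library (dark). Pmepa1 stayed between -1.15 and -0.997 whichever library was left out, while Tgfbr3 ranged from 0.39 to 3.42.

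Markers of mesothelium, the cell layer over the liver surface, moved in the same direction as Pmepa1 through a single gene. Msln had 0, 103 and 30.9 in Klf5 LKO, against 1165, 1302 and 1258 in control. The 6 mesothelial markers summed to 10.7 to 168 in Klf5 LKO and 1199 to 1324 in control, and without Msln the other 5, led by Upk3b, summed to 10.7 to 65.6 in Klf5 LKO and 22.1 to 43.7 in control. These other markers were thus low in both groups, with Upk3b at 2.46 to 16.0 in Klf5 LKO and 13.8 to 22.4 in control. The part of mesothelial cells in the level of Pmepa1 was not tested.

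In the fit over all genes (limma, Benjamini-Hochberg adjusted p under 0.05), 1 of the 10 genes was called, Pmepa1, where 0.652% of all tested genes were called. DESeq2 on the recovered reads called 2, Pmepa1 and Tgfb2, where it called 2.48% of genes, and the authors' deposited table also calls 2, where it calls 2.41%. The edgeR and voom fits each called 1, at 0.623% and 0.549% of genes. The groups did not overlap in 4 of the 10 genes, where 15.6% of all tested genes did not overlap. Of these, Tgfb2, Tgfb3 and Smad3 were higher, as were 7.72% of all tested genes, and Pmepa1 was lower, as were 7.88%. Since this contrast was known when the genes were picked, nothing is read from these counts.

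The order of levels per kb of exon, with the same limit of exon length as for the ligands, differed between the groups in the ranks above Smad7. In Klf5 LKO it ran from Tgfbr1 (559 ± 132) through Smad3 (392 ± 49.9), Tgfb2 (362 ± 41.0), Pmepa1 (355 ± 37.5) and Tgfb3 (302 ± 29.2) to Skil (214 ± 40.7), Tgfbr2 (180.2 ± 29.5), Smad7 (165 ± 22.1), Tgfb1 (31.1 ± 9.89) and Tgfbr3 (18.7 ± 19.1). Neighbours in this order overlapped between libraries, other than Tgfb3 with Skil and Smad7 with Tgfb1. In control it ran from Pmepa1 (748 ± 64.4) and Tgfbr1 (657 ± 89.9) to Smad3 (309 ± 30.1), Tgfbr2 (239 ± 33.6), Tgfb2 (236 ± 32.5), Tgfb3 (209 ± 13.2), Skil (201 ± 12.0), Smad7 (188 ± 18.8), Tgfb1 (39.0 ± 0.74) and Tgfbr3 (5.78 ± 5.20). There the neighbours that did not overlap were Tgfbr1 with Smad3, Smad7 with Tgfb1 and Tgfb1 with Tgfbr3. Pmepa1 had rank 4 in Klf5 LKO and rank 1 in control.

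**Figure D4:**
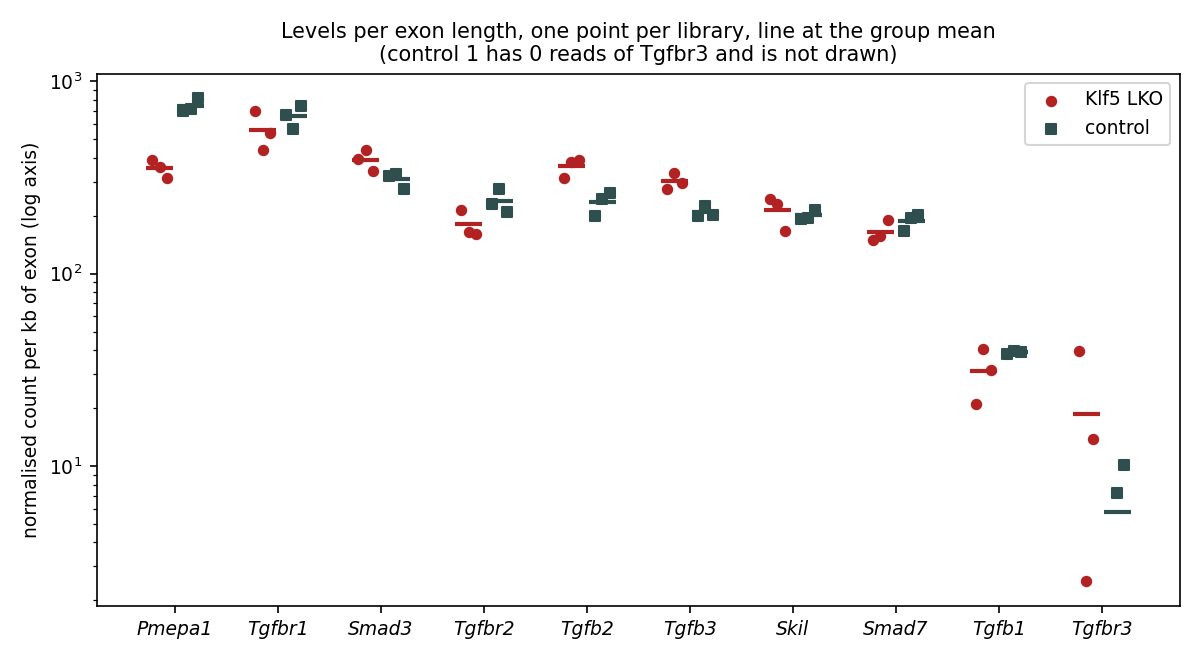
Normalised count per kb of exon (vertical, log axis) of the 10 genes, ordered by the control mean; points are single libraries of Klf5 LKO (red, left) and control (dark, right), and lines are group means. Pmepa1 averaged 355 in Klf5 LKO and 748 in control, and Tgfb1 and Tgfbr3 were under 50 in every library.

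Spread between replicates differed among the members. The coefficient of variation was between 9.67% and 23.6% in Klf5 LKO and between 5.99% and 14.1% in control for the 8 genes other than Tgfb1 and Tgfbr3, where the median over all tested genes was 18.0% in Klf5 LKO and 14.7% in control. Of these 8, Tgfbr1 (23.6%) and Skil (19.1%) were above that median in Klf5 LKO. Tgfb1 had 31.8% in Klf5 LKO and 1.91% in control. Tgfbr3 had 102% in Klf5 LKO and 90.0% in control.

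Genes whose log2 levels followed those of Pmepa1 most closely over the 6 libraries were Golm1, a Golgi membrane protein gene (Pearson r = 0.996), the sulfotransferase gene Sult1a1 (0.993), Tmie (0.992), and the laminin chain genes Lama3 (0.992) and Lamb3 (0.991). With 6 libraries in 2 groups, 81 genes had r above 0.95, so this is a description only. Golm1 had a mean of 2649 in Klf5 LKO and 3940.0 in control, a log2 difference of -0.57, which is smaller than that of Pmepa1.

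Outside these 10 genes, 213 further genes of the pathway were grouped into 9 lists by role, and 168 of them were tested. In all, 1 gene (Gdf15) rose, 0 fell and 167 did not pass, where 0.163% of all tested genes rose and 0.489% fell. By unadjusted p, 20 of the 168 (11.9%) were under 0.05, as were 10.9% of all tested genes, the background for the unadjusted counts given by list. Their median log2 difference was 0.01, against -0.01 over all genes, and 27 (16.1%) had groups that did not overlap, near the 15.6% of all tested genes. The authors' deposited table calls 3 of them, Gdf15, Fstl1 and Cdh2, where it calls 2.41% of all genes. DESeq2 on the recovered reads called 4, where it called 2.48% of all genes, the background for the DESeq2 counts given by list. Gdf15 codes for a distant, stress-induced relative of TGF-beta. It had 459, 358 and 525 in Klf5 LKO, against 138, 188 and 199 in control, a log2 difference of 1.35 (SE 0.25, adjusted p = 0.0322). The groups did not overlap, but the call ended without Klf5 LKO 1 (adjusted p = 0.0614), Klf5 LKO 3 (0.138), control 1 (0.151), control 2 (0.124) or control 3 (0.0619). It also ended with no filter (0.0552), with voom (0.0589) and with the leukocyte term (0.101).

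**Figure D5:**
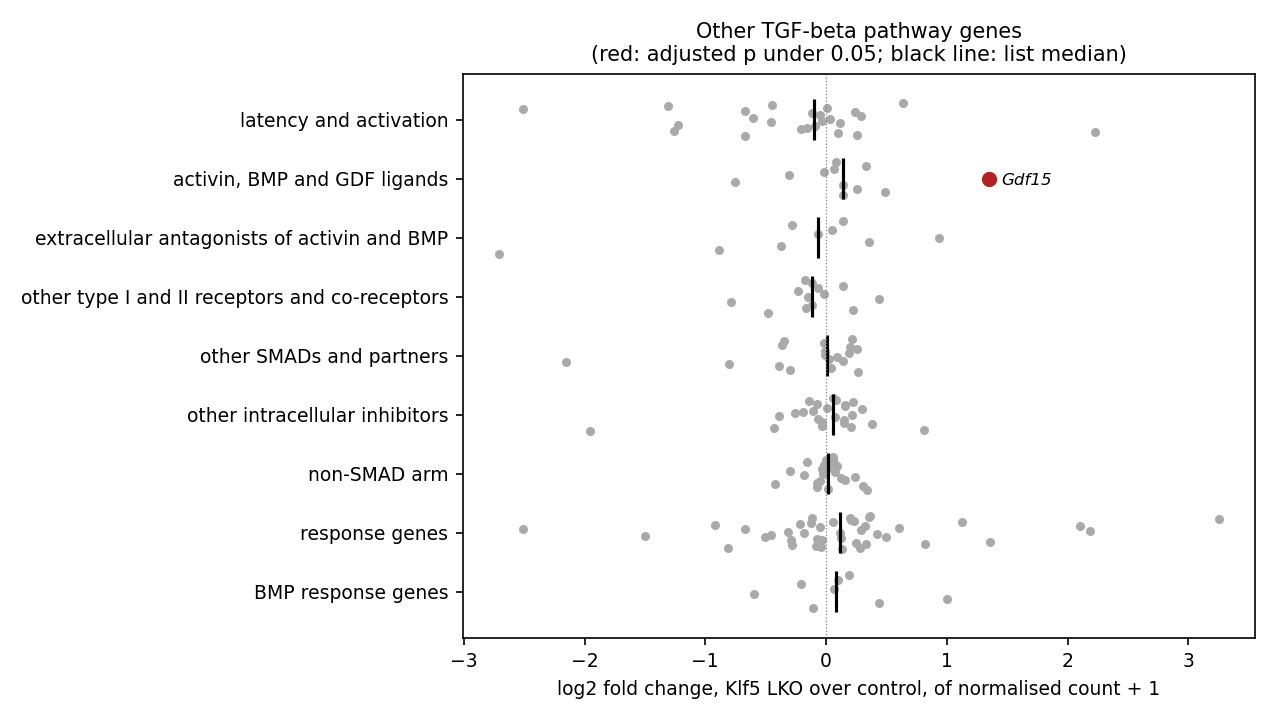
Log2 fold change of Klf5 LKO over control, on the scale of normalised count + 1 (horizontal axis), for tested pathway genes outside the 10, in 9 lists; each point is a gene (a gene in several lists appears in each), the black line is the list median and red marks adjusted p under 0.05. Gdf15, at 1.35, was the gene that passed, and the list medians lay between -0.12 and 0.14.

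Upstream of the receptors, 0 of 24 tested genes of ligand latency and activation passed (5 at an unadjusted p under 0.05, and 0 with DESeq2, edgeR or voom), with a median log2 difference of -0.10. The integrin chains Itgb1 and Itgav, of which Itgav forms the integrins that release latent TGF-beta, averaged 15132 ± 2054 and 14432 ± 2534 in the Klf5 LKO libraries, against 16049 ± 1328 and 16037 ± 2176 in the control libraries (SD, n = 3 each). Of 11 activin, BMP and GDF ligands tested, 1 rose, Gdf15, and 10 did not pass (median 0.14). Among 9 secreted antagonists of activin and BMP, 0 passed (1 at an unadjusted p under 0.05, and 1 with DESeq2), with a median of -0.07. Twsg1, a BMP-binding protein, had 4085 ± 311 in Klf5 LKO and 3699 ± 280 in control, and the follistatin-like Fstl1 had 2302 ± 553 in Klf5 LKO and 1211 ± 324 in control (limma adjusted p = 0.0943, DESeq2 adjusted p = 0.00180).

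Of 13 other receptors and co-receptors tested, 0 passed (2 at an unadjusted p under 0.05, and 0 with DESeq2, edgeR or voom), with a median of -0.12. Fkbp1a, whose product holds type I receptors silent, had 6497 ± 715 in Klf5 LKO and 6767 ± 64.3 in control, and the BMP receptor Bmpr1a 2825 ± 360.1 in Klf5 LKO and 3154 ± 619 in control. Of 18 other SMADs and partners, 0 passed by limma, edgeR, DESeq2 or voom, and 0 at an unadjusted p under 0.05 in limma. The common partner Smad4 had 2849 ± 405 in Klf5 LKO and 2667 ± 155 in control, and Smad2 had 2397 ± 12.6 in Klf5 LKO and 2357 ± 188 in control (SD, n = 3 each). The log2 difference of Smad2 was 0.03 (SE 0.12), against the 0.34 of Smad3.

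Of 25 genes listed as other intracellular inhibitors, 0 passed (2 at an unadjusted p under 0.05, and 0 with DESeq2, edgeR or voom), with a median of 0.06. The list mixes inhibitors with genes that promote the signal, so these values are not those of inhibitors alone. The deubiquitinase Usp9x, which is not an inhibitor, had 4651 ± 361 in Klf5 LKO and 5132 ± 502 in control. Ski, the relative of Skil, chosen after its values were seen, had 2130.5, 2729 and 2258 in Klf5 LKO, against 2877, 2957 and 3472 in control, and did not pass (adjusted p = 0.300). In the non-SMAD arm, 0 of 23 passed (2 at an unadjusted p under 0.05, and 0 with DESeq2, edgeR or voom), with a median of 0.01. Its most abundant genes, the GTPase Rhoa and its target kinase Rock2, averaged 6939 ± 1622 and 3785 ± 537 in the Klf5 LKO libraries, against 8396 ± 806 and 3730 ± 284 in the control libraries.

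Downstream, 0 of 43 tested response genes passed (7 at an unadjusted p under 0.05, 2 with DESeq2, and 0 with edgeR or voom), with a median of 0.11. Cdh1, the epithelial cadherin that TGF-beta can repress, had 43848 ± 5850 in Klf5 LKO and 53262 ± 4629 in control, and Ctgf, a matrix-associated growth factor, 35681 ± 6474 in Klf5 LKO and 43563 ± 8304 in control (SD, n = 3 each). The genes that DESeq2 called were Myc, with 1935 ± 38.5 in Klf5 LKO and 1298 ± 314 in control (DESeq2 adjusted p = 0.0488, limma adjusted p = 0.162), and the cadherin Cdh2, with 1114 ± 47.7 in Klf5 LKO and 657 ± 233 in control (DESeq2 adjusted p = 0.0390, limma adjusted p = 0.145). Of 8 BMP response genes tested, 0 passed by limma, edgeR, DESeq2 or voom, and 0 at an unadjusted p under 0.05 in limma. Id2 had 17202 ± 2586 in Klf5 LKO and 16411 ± 2395 in control, and Id3 1535 ± 435 in Klf5 LKO and 1734 ± 290.0 in control.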

How the data were processed

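A low-input cDNA kit was used on 4 ng of RNA, followed by 10 and then 7 rounds of PCR, per the labels' protocols, so reads are not independent molecules. TopHat, Bowtie2, DESeq2 and mm10 are named in the submitters' processing notes, and the counter, gene annotation and filters were not given in the sources used here. The authors deposited signal per gene and library, each a read count over that library's size factor, and a table of their comparison with log2 fold changes, p-values and a Wald statistic (the score). Every value was a whole multiple of 1 read (tolerance 0.001, 100% of values).

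The members and gene lists were chosen with earlier results of these data known. Genes with a mean of at least 10 (13490) were fitted in limma 3.58.1 (trend, R 4.3.3) on log2(value + 1), a pseudocount of 1, with two-sided tests, Benjamini-Hochberg adjustment over all of them and a threshold of 0.05. DESeq2 1.42.0, edgeR 4.0.16 and voom on recovered reads were alternatives, beside other scalings, filters and pseudocounts, a replicate block, a term for 20 leukocyte markers, and leaving out each library. The limma step was tested on simulated data. Positions and exon lengths (all exon bases of a gene, merged over its transcripts) come from the GENCODE M21 annotation of GRCm38 (mm10). Named pathway genes are up to 4 that passed in each list, or the 2 most abundant where none did; other exceptions are marked, and 1 gene that the rule takes is not reported here. For Pmepa1 the 5 genes with the highest correlation are named.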

Additional observations from a re-analysis of the deposited data

How the results depend on the processing

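The log2 differences of the 10 genes were recomputed under 17 alternatives, 170 values in all. Each moved by less than 1 SD between replicates, and the sign changed in 1, that of Skil without Klf5 LKO library 1 (-0.03). Pmepa1 was called under all 17. It was picked with this contrast known and the fits share the same libraries, so nothing is read from that count. With DESeq2 there were 335 called genes (2.48% of all), 2 of the 10 (Pmepa1 and Tgfb2) and 4 of the 168 other pathway genes (Cdh2, Fstl1, Gdf15 and Myc). The leukocyte term left 47 of the 13490 genes tested called. Of the 168 other pathway genes, 0 were called with no filter, with voom or with that term, where 20, 21 and 20 had an unadjusted p under 0.05 (11.9%, 12.5% and 11.9%, against 9.62%, 10.6% and 10.5% of all genes). Leaving out 1 library gave 14 (without control 2) to 105 (without Klf5 LKO 1) called genes over all, 1 of the 10 throughout, and 0 to 2 other pathway genes. In these fits the other pathway genes with an unadjusted p under 0.05 made up 5.39% (without control 2) to 16.2% (without Klf5 LKO 2). The shares of all genes in those 2 fits were 7.7% and 12.9%. Counts over all genes without Klf5 LKO 3, control 1 and control 3 were 49, 24 and 53. The fit with a replicate block called 110 of the 13490 genes tested, 1 of the 10 and 3 other pathway genes (Fstl1, Gdf15 and Thbs1). There 14.3% of the other pathway genes had an unadjusted p under 0.05, against 11.7% of all genes. Deviations of libraries with the same number correlated at 0.185, -0.012 and 0.106, and Klf5 LKO 2 correlated best with control 3 (0.138). Such weak correlations among so few libraries cannot show whether the numbers pair the samples. Depth limits Tgfbr3, with 0 to 317 reads, and Tgfb1, with 126 to 276. The causes of these changes were not tested.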
